A study of Mus musculus with 12 samples.

Results

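Hand2, Phox2a, Gata3 and Ret are 4 of the 18170 named genes that could be tested on these arrays. Hand2, Phox2a and Gata3 encode transcription factors of the sympathoadrenal lineage, and Ret encodes a receptor tyrosine kinase that the same lineage carries. They were chosen by symbol, and all 12 arrays held a value for the single probe of each (numbered 10579 for Hand2, 5286 for Phox2a, 12713 for Gata3 and 19562 for Ret). The arrays compared adrenal gland RNA of 6 mice that carry a YAC transgene with Ftz-F1, from line #56, each set against RNA of 1 wild-type littermate matched for sex and age. Ftz-F1 is Nr5a1, the gene of the nuclear receptor SF-1, which the adrenal cortex and gonads need in order to form. Pairs 1, 3 and 5 were 4 months old and carried 2 transgene copies, and pairs 11, 13 and 15 were 10 days old and carried 1 copy. The pairs bear the number of the transgenic mouse, females made up pairs 5 and 15 and males the other 4. The sources used here do not give the strain. All transgenic mice came from 1 line, and the effects of age and of copy number cannot be told apart.

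Chromaffin cells of the adrenal medulla and sympathetic neurons descend from the neural crest. Phox2a, Hand2, Gata2 and Gata3 act in the sympathoadrenal programme, and the factors together switch on Th and Dbh, the genes of catecholamine synthesis. Ret binds ligands of the GDNF family through GFRA co-receptors and passes survival and growth signals, and activating RET mutations in humans cause tumours of chromaffin cells. The cortex that makes steroids surrounds the medulla and has another origin, and it is the cortex in which Nr5a1 is expressed. A ratio from whole glands joins both, and fewer cells of a type and less RNA per cell cannot be told apart in it.

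The 300 bases around the annotated starts of Hand2, Phox2a and Gata3, from 250 before to 50 after the start, are shown because these are the stretches in which factors of the lineage and SF-1 could bind next to each gene. They come from RefSeq on GRCm38.p6, where the table matched 3 of the 4 genes. Capitals mark matches on either strand to AAGGTCA (a site of SF-1), GATAA (GATA factors), CANNTG (the E-box bound by HAND proteins with their partners) and ATTA (the core of homeodomain sites, the class to which PHOX2A belongs), and overlapping matches run together.
Hand2: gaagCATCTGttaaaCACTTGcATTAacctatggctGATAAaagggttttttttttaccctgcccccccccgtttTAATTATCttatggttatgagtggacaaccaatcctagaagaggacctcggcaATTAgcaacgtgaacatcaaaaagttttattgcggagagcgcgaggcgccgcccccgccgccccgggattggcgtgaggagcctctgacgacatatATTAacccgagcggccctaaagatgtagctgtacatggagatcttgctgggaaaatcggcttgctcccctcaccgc
Phox2a: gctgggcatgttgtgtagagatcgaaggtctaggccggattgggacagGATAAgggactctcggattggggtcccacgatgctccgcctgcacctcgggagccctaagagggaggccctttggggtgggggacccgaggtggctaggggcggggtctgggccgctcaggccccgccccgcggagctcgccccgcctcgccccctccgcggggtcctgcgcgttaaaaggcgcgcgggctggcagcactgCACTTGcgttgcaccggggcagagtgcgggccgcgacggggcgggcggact
Gata3: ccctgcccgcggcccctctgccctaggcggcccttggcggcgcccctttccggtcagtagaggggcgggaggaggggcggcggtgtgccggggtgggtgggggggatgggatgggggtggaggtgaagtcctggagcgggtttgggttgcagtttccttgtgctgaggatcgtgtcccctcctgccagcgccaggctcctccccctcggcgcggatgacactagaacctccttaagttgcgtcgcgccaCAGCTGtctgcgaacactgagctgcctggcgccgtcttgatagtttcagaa
The Hand2 stretch is chr8:57320733-57321032 on the plus strand, that of Phox2a chr7:101818063-101818362 on the plus strand and that of Gata3 chr2:9878551-9878850 on the minus strand. No stretch held AAGGTCA, which occurred in 4.7% of the 32851 promoters of this length in the table. GATAA matched at 2 positions in Hand2 and 1 in Phox2a, against 25.4% of all promoters with a match. CANNTG matched at 2 positions in Hand2 and 1 each in Phox2a and Gata3 (72.3% of all promoters). ATTA matched at 5 positions in Hand2, 2 of them overlapping each other and a GATAA match, and at none in the other 2 stretches (58.0% of all promoters). G and C made up 50.3% of the Hand2 stretch, 71.3% of Phox2a and 67.3% of Gata3, around a median of 52.7% over all promoters. A match describes the letters and does not show that a factor binds there.

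All values below are log2 ratios of the 2 channels of an array after a loess correction of the dye trend, and the 2 dye-exchanged arrays of a pair were averaged. Their direction is the deposited one. The sources used here do not state whether the transgenic or the wild-type channel is on top, so a positive value may stand for a higher or a lower level in the transgenic mouse, alike for every gene. Nr5a1, the gene of the transgene, was at -0.46, 0.11 and -0.22 in the 4-month pairs 1, 3 and 5, and at -0.57, -0.65 and -0.79 in the 10-day pairs 11, 13 and 15. It was thus negative in 5 of 6 pairs and on 10 of 12 arrays, with a mean of -0.43 (SE 0.09, limma adjusted p = 0.108). If the transgenic channel is on top, Nr5a1 was lower in most transgenic mice, and if it is below, higher. The sources used here do not say which part of Nr5a1 the probe detects, and its sign was not used to turn the ratios.

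Each array had 25344 spots, of which 4.3% to 6.59% were empty. The signal of the probe lay above that of 84.9% of probes for Hand2, 88.3% for Phox2a, 81.7% for Gata3 and 42% for Ret, and none was near the upper limit of the scanner. Signals of the tissue's own markers were high, above those of 98.6% of probes for Star and 98.3% for Cyp11a1 of the cortex, and 91.7% for Pnmt and 88.1% for Th of the medulla. Markers of other tissues stood apart in 3 pairs. The median of 4 hepatocyte markers was 3.82 in pair 11 and 0.08 to 0.60 in the other 5. The 3 B cell markers had a median of -4.18 in pair 3 and -0.25 to 0.07 elsewhere. That of 4 adipocyte markers was 2.18 in pair 15 and -0.78 to 0.58 elsewhere.

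Gata3, which encodes a zinc finger factor needed for sympathoadrenal cells to make catecholamines and, in the immune system, for T helper cells, had the largest mean ratio of the 4 genes. It was at 0.20, 0.60 and 0.91 in the 4-month pairs 1, 3 and 5, and at -0.16, 0.43 and 1.03 in the 10-day pairs 11, 13 and 15. The ratio was positive in 5 of 6 pairs and on 9 of 12 arrays, the 2 age groups overlapped, and the female pairs 5 and 15 were the highest of their groups. Gata3 averaged 0.57 ± 0.36 at 4 months and 0.43 ± 0.59 at 10 days (SD, n = 3 each), and 0.50 over all 6 pairs (SE 0.16, 95% confidence interval 0.14 to 0.86). The 10-day mean was 0.14 without pair 15, the pair with the high adipocyte markers, and 0.73 without pair 11. By size, whatever the sign, the mean over all 6 pairs ranked 438 of 18170 named genes. It did not pass the threshold of 0.05 (limma adjusted p = 0.215, unadjusted p = 0.0129). A two-sided exact sign-flip test of the 6 pair values gave p = 0.0625, where 0.0312 is the smallest p that 6 pairs allow. Gata3 passed when the Cy5 arrays, those with the transgenic RNA in that dye, were taken alone (0.62, limma adjusted p = 0.0254). So did 3439 of 21610 features. It also passed when no array was corrected (0.67, limma adjusted p = 0.0277), as did 3548 of 21913 features. The median of all features was itself 0.27 there. Over all alternatives the adjusted p of Gata3 ran from 0.0254 to 0.720. Of 6 measured T cell markers, 5 had a negative mean over all 6 pairs. The lowest pair median of the 6 markers was -1.37 (pair 3), while every other pair had a median from -0.17 to 0.12. Kidney, another organ that expresses Gata3 and Ret, was checked with 5 markers, whose median lay between -0.08 and 0.23 in every pair. All 5 had a positive mean over all 6 pairs, with a median of 0.08. The highest single kidney marker was at 0.68 in pair 15 and at 0.58 in pair 13. The part of T cells and of kidney in the Gata3 ratio was not tested.

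Phox2a, a homeodomain factor that binds the promoters of Th and Dbh, was at -0.25, 0.30 and 0.43 in the 4-month pairs 1, 3 and 5, and at 0.38, 0.13 and 0.57 in the 10-day pairs 11, 13 and 15. It was positive in 5 of 6 pairs and on 10 of 12 arrays, both exceptions were Cy5 arrays, and the age groups overlapped. Its mean was 0.16 ± 0.36 at 4 months and 0.36 ± 0.22 at 10 days (SD, n = 3 each), and 0.26 over all 6 pairs (SE 0.11, 95% confidence interval 0.01 to 0.51). The 4-month mean was 0.026 without pair 5, 0.088 without pair 3 and 0.37 without pair 1. The mean over all 6 pairs did not pass (limma adjusted p = 0.321, unadjusted p = 0.0434), and the exact sign-flip test gave p = 0.0938. Centring each array on its median in place of the loess curve brought it to 0.13, and pair 1, the negative one, left out brought it to 0.36. The 6 Cy5 arrays alone gave 0.07 and the 6 Cy3 arrays 0.45. The second passed (limma adjusted p = 0.0451), as did 1411 of 21845 features. The adjusted p of Phox2a ran from 0.0451 to 0.930 over all alternatives. Between the arrays of a pair the order was the same 6 times, with the Cy3 array 0.21 to 0.53 higher.

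Hand2, a basic helix-loop-helix factor that works with PHOX2A and GATA3 on the genes of noradrenaline synthesis, had its highest ratios in both female pairs. Its pair values were 0.09, -0.13 and 1.24 in the 4-month pairs 1, 3 and 5, and -0.34, -0.57 and 0.74 in the 10-day pairs 11, 13 and 15. Both arrays of female pair 5 (1.40 and 1.08, with the transgenic sample in Cy5 and in Cy3) and of female pair 15 (0.46 and 1.03) lay above all 8 arrays of male pairs, which ran from -0.57 to 0.16. The mean was 0.40 ± 0.74 at 4 months and -0.05 ± 0.70 at 10 days (SD, n = 3 each), and 0.17 over all 6 pairs (SE 0.22, limma adjusted p = 0.757). It was -0.04 without pair 5 and -0.03 without pair 15, so the positive mean rested on having both female pairs.

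Ret was the gene of the 4 for which the 2 dye orientations disagreed most. With the transgenic sample in Cy5 its ratio was positive on 6 of 6 arrays, at 0.90, 0.42 and 0.35 in the 4-month pairs 1, 3 and 5 and at 0.45, 0.45 and 0.28 in the 10-day pairs 11, 13 and 15. With it in Cy3 the same pairs stood at -0.82, -0.02 and -0.60 at 4 months and at 0.05, -0.21 and 0.09 at 10 days, so 4 of 6 pairs had arrays of opposite sign. The Cy5 arrays averaged 0.48 ± 0.22 and the Cy3 arrays -0.25 ± 0.38 (SD, n = 6 each), a gap of 0.73 that exceeded the gap of 91.1% of the 20356 features measured on all arrays, whose median gap was 0.26. Averaged by pair, Ret was at 0.04, 0.20 and -0.12 at 4 months and at 0.25, 0.12 and 0.19 at 10 days. Its mean was 0.04 ± 0.16 at 4 months and 0.19 ± 0.07 at 10 days (SD, n = 3 each), and 0.11 over all 6 pairs (SE 0.07, limma adjusted p = 0.515). The array descriptions also carry different dates for the orientations, so dye and date cannot be told apart. Ret had the dimmest probe of the 4 genes. Its average depends on the orientation used, with 0.48 from Cy5 arrays alone (limma adjusted p = 0.0205) and -0.25 from Cy3 arrays alone (limma adjusted p = 0.224). Of all features, 3439 of 21610 passed on Cy5 arrays alone and 1411 of 21845 on Cy3 arrays alone. Over all alternatives the adjusted p of Ret ran from 0.0205 to 0.972.

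**Figure D1:**
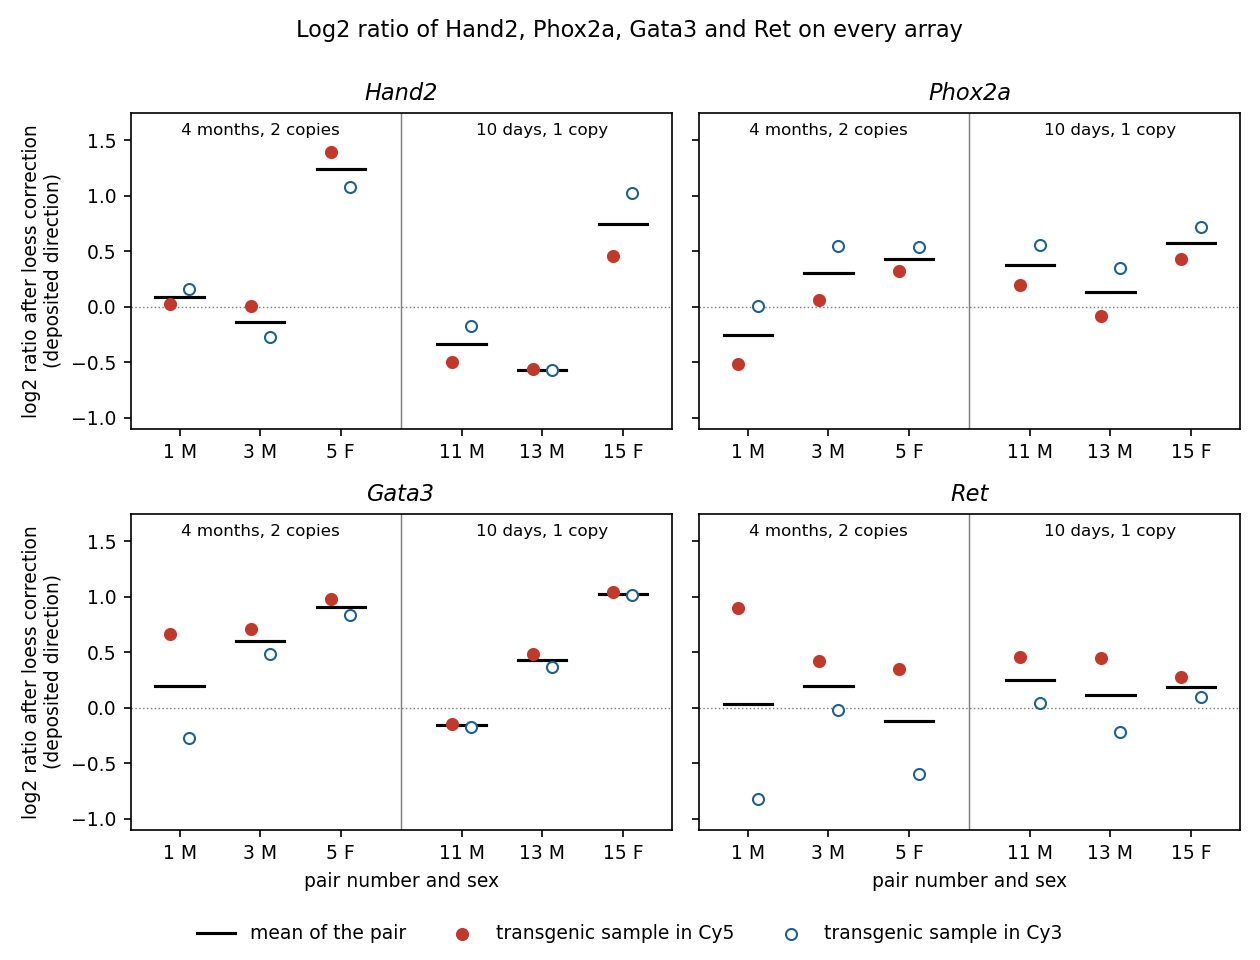
Log2 ratios (vertical axis, deposited direction) of Hand2, Phox2a, Gata3 and Ret on each array, by pair number and sex (horizontal axis), with filled points for arrays with the transgenic sample in Cy5, open points for those with it in Cy3 and a bar for the mean of the pair. Female pairs 5 and 15 stand highest for Hand2, at 1.24 and 0.74, and the filled Ret points are all above 0 while 4 of 6 open ones are below it.

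The plot of paired arrays shows how far the dye exchange held for each gene. The 2 arrays of a pair had the same sign in 5 of 6 pairs for Hand2 and Gata3, 4 for Phox2a and 2 for Ret. Mean gaps between the orientations (Cy5 minus Cy3) were -0.07 for Hand2, 0.25 for Gata3 and -0.38 for Phox2a. These exceeded the gap of 14.6%, 48% and 67.1% of features, so Hand2 had the smallest gap of the 4 genes and Ret the largest. In pair 1 the Gata3 arrays opposed each other, at 0.67 with the transgenic sample in Cy5 and -0.27 with it in Cy3.

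**Figure D2:**
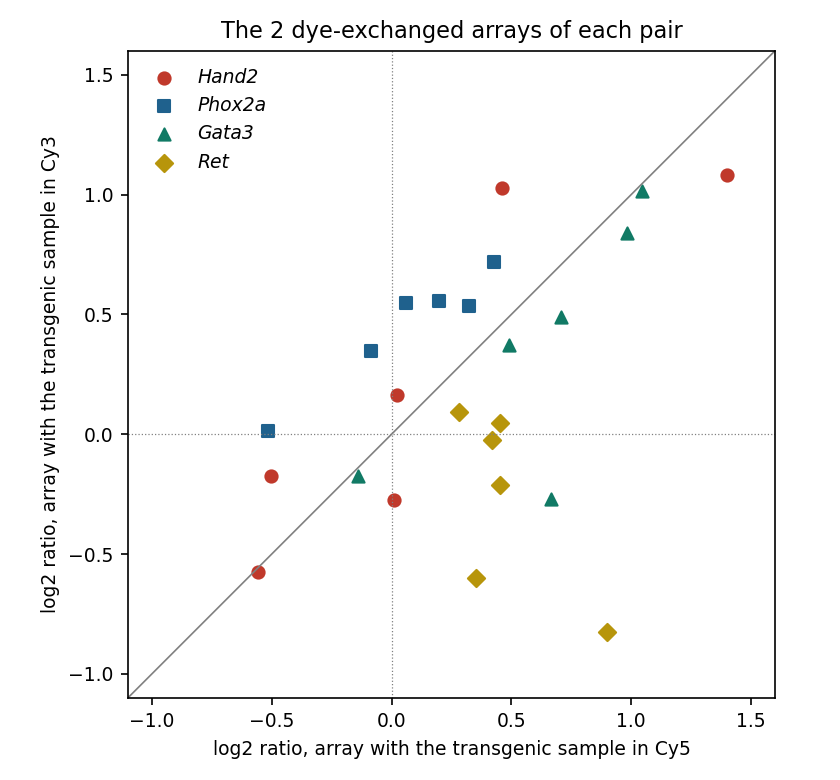
Each point is 1 pair, with the log2 ratio of its array with the transgenic sample in Cy5 on the horizontal axis and that of its dye-exchanged array on the vertical axis, and the line marks equal values. All 6 Phox2a points lie above the line and all 6 Ret points below it, Hand2 points lie on both sides, and the Gata3 point of pair 1 (0.67 and -0.27) is the farthest of its gene from the line.

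Whether the ratios of the lineage genes differ from 0 was tested in each age group and over all pairs. None of the 4 genes passed in any of these tests. In the table as a whole, limma called 0 of 21912 features at 4 months (0%), 0 at 10 days (0%) and 8 over all 6 pairs (0.0365%), so calls were rare in the table as well. An ordinary linear model called none of the 4 genes either. At an unadjusted limma p under 0.05 stood Gata3 at 4 months, against 12.3% of all features, and Phox2a at 10 days, against 8.35%. Both did so over all 6 pairs, against 15% of features in either direction with 7.57% positive and 7.38% negative. All 4 genes had a positive mean over all 6 pairs, with a median of 0.22, beside a median of -0.01 over all features, of which 47.3% were positive. The mean was also positive for all 4 when arrays were centred on their median, with a median of 0.14 over the 4 genes. No gene of the 4 was positive in all 6 pairs, which 5.58% of features were, and none was negative in all 6, which 4.66% were.

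**Figure D3:**
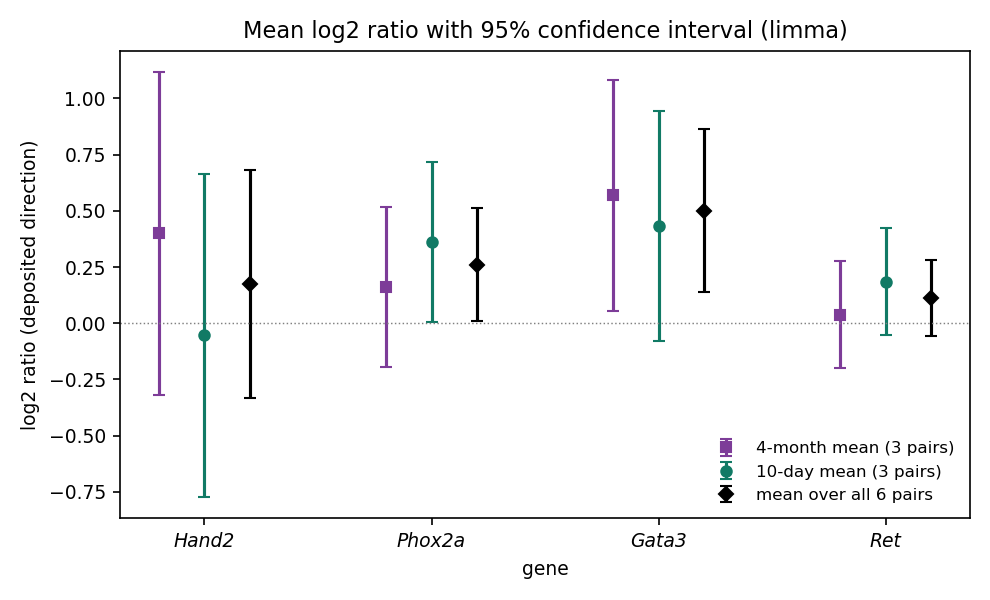
Mean log2 ratio (vertical axis, deposited direction) of each gene (horizontal axis) with its 95% confidence interval from limma, not adjusted for the number of features, at 4 months, at 10 days and over all 6 pairs. The intervals over all 6 pairs lie above 0 for Gata3 (0.14 to 0.86) and Phox2a (0.01 to 0.51) and include 0 for Hand2 and Ret.

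The difference between the age groups asks whether the ratio depends on age and copy number. It was 0.45 for Hand2 (SE 0.44, 95% confidence interval -0.56 to 1.47), -0.20 for Phox2a (SE 0.22, -0.70 to 0.30), 0.13 for Gata3 (SE 0.31, -0.59 to 0.86) and -0.15 for Ret (SE 0.15, -0.48 to 0.19), as 4-month minus 10-day mean. Limma adjusted p-values ran from 0.933 for Hand2 to 0.977 for Gata3, and 0 of 21912 features passed (0%), with 4.58% at an unadjusted p under 0.05 and none of the 4 genes among them. Exact permutation of the 3 against 3 pair values, two-sided, gave p from 0.3 for Ret to 0.8 for Gata3, where 0.1 is the smallest p this design allows. The 2 groups overlapped for all 4 genes, while 10.4% of features had groups that did not overlap. The Hand2 difference was 0.033 without pair 5 and 0.85 without pair 15, and leaving out 1 of the other 4 pairs gave 0.20 to 0.72. With a sex term in the model its SE was 0.15 and its unadjusted p 0.0219 (limma adjusted p = 0.918). A p above the threshold does not show that the ratios were alike at both ages.

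The difference between the sexes was fitted with the age group in the model, on 2 female and 4 male pairs. Hand2 averaged 0.99 in the female pairs and -0.24 ± 0.28 in the male pairs (SD, n = 4), a difference of 1.23 (SE 0.16, 95% confidence interval 0.84 to 1.62). By unadjusted p (1.35e-04) Hand2 ranked 3 of 18164 named genes in this comparison and by size 100, yet it did not pass over all features (limma adjusted p = 0.807). Gata3 differed by 0.70 (SE 0.23, unadjusted p = 0.0186, adjusted p = 0.845), with 0.97 in females and 0.27 ± 0.33 in males (SD, n = 4). For Phox2a the difference was 0.36 (SE 0.20, adjusted p = 0.92) and for Ret -0.12 (SE 0.16, adjusted p = 0.952). Both female pairs lay above all 4 male pairs for Hand2, Phox2a and Gata3, which 6.94% of features did, while 7.11% had both female pairs below all 4 male pairs, the pattern these genes would have with the ratio turned. No feature of 21905 passed (0%), with 5.67% at an unadjusted p under 0.05, to which Hand2 and Gata3 belong. Exact permutation of the sexes, two-sided, gave p = 0.0667 for Hand2, which is the smallest p that 2 against 4 pairs allow, and p = 0.133 for Gata3 and Phox2a.

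The Hand2 difference lay between 1.10 and 1.34 under all alternatives tried, with adjusted p-values from 0.265 to 0.999, and was 1.19 from Cy5 arrays and 1.27 from Cy3 arrays alone. Leaving out a pair in turn gave 1.18 to 1.28. Other genes of the lineage were set beside it after their values were seen. Th, the gene of tyrosine hydroxylase at the first step of catecholamine synthesis, was at 1.30 and 1.34 in female pairs 5 and 15, and between -0.01 and 0.77 in male pairs (difference 0.80, unadjusted p = 0.0105, limma adjusted p = 0.828). Hand1, the close relative of Hand2, was at 0.86 and 1.04 in these female pairs, and between 0.23 and 0.73 in male pairs (difference 0.50, adjusted p = 0.879). Of 10 catecholamine genes, Th and Chgb were the 2 with both female pairs above all male ones, and of 10 other sympathoadrenal factors Hand1 was above and Tfap2b below. Marker lists of other cells differed between the sexes in both directions. All 4 adipocyte markers measured (Adipoq, Fabp4, Plin1 and Lpl) had a positive difference at an unadjusted p under 0.05, with a median of 1.19, and their median by pair was 0.29 in pair 5 and 2.18 in pair 15, against -0.78 to 0.58 in male pairs. All 4 hepatocyte markers had a negative difference, with a median of -1.22, and 3 of them had both female pairs below all male ones. Of 6 cortex markers 5 had a positive difference, with a median of 0.30 over the 6. Cyp11b2 and Hsd3b1 had both female pairs above all male ones. The largest difference was 2.22 for Cyp21a1, at 0.25 and 0.75 in the female pairs and between -3.96 and 1.64 in male pairs. The only negative one was -1.46 for Star, at -2.04 and 0.15 in the female pairs and between -0.42 and 1.48 in male pairs. The sexes overlapped for both genes. Of 5 markers of smooth muscle and fibroblasts Myh11 and Dcn had both female pairs above and Col1a1 both below. From the highest adipocyte median downwards, the order began with pair 15 (2.18, Hand2 at 0.74), pair 13 (0.58, Hand2 at -0.57) and pair 5 (0.29, Hand2 at 1.24). Then came pair 1 (-0.18, Hand2 at 0.09), pair 11 (-0.60, Hand2 at -0.34) and pair 3 (-0.78, Hand2 at -0.13). The part of these tissues in the Hand2 and Gata3 differences was not tested.

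**Figure D4:**
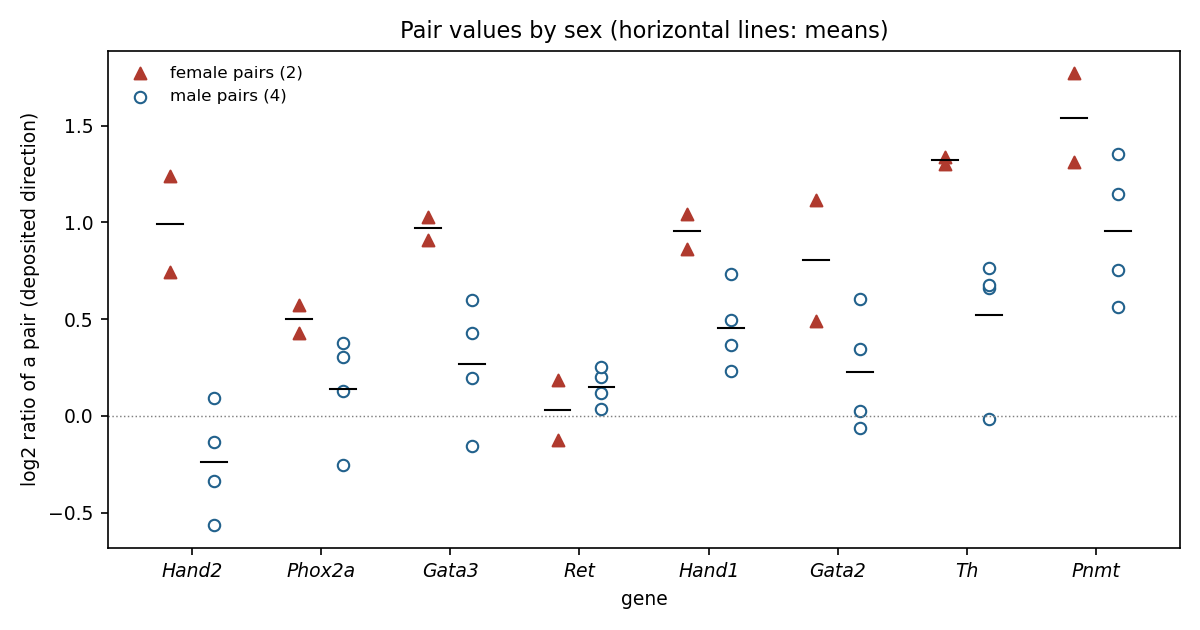
Pair values of the log2 ratio (vertical axis, deposited direction) in 2 female pairs (triangles) and 4 male pairs (open circles) for Hand2, Phox2a, Gata3, Ret, Hand1, Gata2, Th and Pnmt (horizontal axis), with lines at the means. The sexes do not overlap for Hand2, Phox2a, Gata3, Hand1 and Th, and overlap for Ret, Gata2 and Pnmt.

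The lists held 10 other measured transcription factors of the lineage. None passed in limma over all 6 pairs, with 4 positive and 6 negative and a median of -0.01, the median of all features. Hand1 had the largest mean, 0.62 ± 0.31 (SD, n = 6, limma adjusted p = 0.0968), and was positive in 6 of 6 pairs and on 11 of 12 arrays. Gata2, which acts beside Gata3, averaged 0.42 ± 0.43 (SD, n = 6, adjusted p = 0.255) and was positive in 5 of 6 pairs. At the other end were Mycn, a driver of neuroblastoma in humans, at -0.15 ± 0.21, and Epas1, the hypoxia factor of the medulla, at -0.14 ± 0.18 (SD, n = 6 each). Both probes were dim, with a signal above that of 18.8% of probes for Mycn and 1.9% for Epas1. Without a correction of the arrays all 10 were positive, with a median of 0.31 beside 0.27 over all features. Among the other GATA genes, Gata4 was at 0.03, Gata1 at -0.05, Gata6 at -0.07 and Gata5 at -0.10, and Gata2 and Gata3 stood above these 4 also with median centring. The probe signal lay above that of 77.5% of probes for Gata1, 26.9% for Gata4, 11.4% for Gata5 and 10.6% for Gata6. All 6 GATA genes were positive with no correction.

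Of the catecholamine genes set beside these factors, 10 of 10 were measured, and 7 were positive and 3 negative over all 6 pairs, with a median of 0.30. Whether the factors act on each of them was not tested. None passed over all features, and 5, all positive, stood at an unadjusted p under 0.05, against 7.57% of features with a positive and 7.38% with a negative ratio. Pnmt, which encodes the enzyme that turns noradrenaline into adrenaline, averaged 1.15 ± 0.44, and Cyb561, the cytochrome that supplies electrons for dopamine hydroxylation inside the granule, 0.83 ± 0.30 (SD, n = 6 each, limma adjusted p = 0.0682 for both). Chga and Chgb, granins of the secretory granule, were at -0.17 ± 0.26 and -0.02 ± 0.14 (SD, n = 6 each), and the Chga spots were near the upper limit of the scanner. The median of this list was positive in 5 of 6 pairs, with -0.04 in pair 11, the pair with the high hepatocyte markers. There Gata3 and Hand2 were also negative, at -0.16 and -0.34, while Phox2a was at 0.38. Hand2 was negative as well in pairs 3 and 13, at -0.13 and -0.57, where the list median was 0.76 and 0.38.

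On the side of Ret, 5 of 10 ligand and co-receptor genes could be tested, and none passed. All 5 had a negative mean over all 6 pairs, with a median of -0.12, but all 5 were positive when the arrays were left uncorrected and 1 was with median centring. Nrtn, the ligand neurturin, was at -0.12 ± 0.44 and Gdnf, the first known ligand of the family, at -0.03 ± 0.07 (SD, n = 6 each). Artn, the ligand artemin, was at -0.09 ± 0.20 (SD, n = 6), and Gfra4, the co-receptor of persephin, at -0.15 ± 0.38 (SD, n = 5). The Gfra4 probe was dim, with a signal above that of 1.12% of probes. The co-receptor genes Gfra1, Gfra2 and Gfra3 each had a probe that gave too few values for a test. Of 13 measured adaptors, attenuators and targets of Ret signalling, 4 were positive and 9 negative, with a median of -0.07, while 12 of 13 were positive with no correction. Dok5, an adaptor that binds activated Ret, was highest at 0.12 ± 0.18, and Etv4, a target of Ret in the kidney bud, lowest at -0.19 ± 0.27 (SD, n = 6 each). The signal of the Etv4 probe lay above that of 14.9% of probes. Dok1 was at -0.17 ± 0.18 and the ubiquitin ligase gene Cbl at 0.07 ± 0.21 (SD, n = 6 each). Among 6 other receptor genes Kit, the stem cell factor receptor, was lowest at -0.25 ± 0.25 (adjusted p = 0.304), and Erbb3, the neuregulin receptor of Schwann cell precursors, was at -0.16 ± 0.16 (SD, n = 6 each). Ntrk2 was at 0.08 ± 0.23 and Alk at -0.0048 ± 0.31 (SD, n = 6 each). No list on the side of Ret held a gene that passed in limma.

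**Figure D5:**
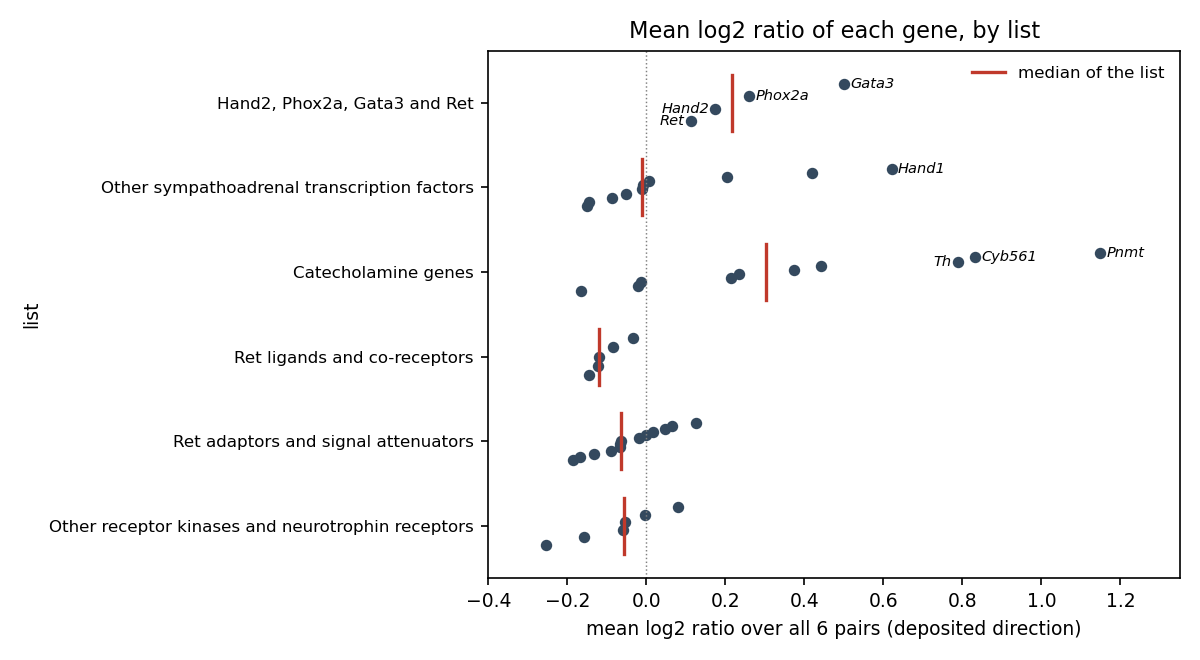
Mean log2 ratio over all 6 pairs (horizontal axis, deposited direction) of each measured gene, by list (vertical axis), with a line at the median of each list. The catecholamine genes reach 1.15 (Pnmt) and have a median of 0.30, Hand1 stands at 0.62 among the other factors, and the lists around Ret lie between -0.25 and 0.12.

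Likeness of pattern was measured as Pearson's r over the 12 arrays with each dye orientation centred on its own mean, against 17047 named genes with all values. Those arrays are 6 pairs measured on 2 arrays each, and with so many genes compared a high r arises readily, so the values are descriptions. Closest to Hand2 were Pds5b (r = 0.92), Mcrip1 (0.89) and 9330151L19Rik (0.87). Phox2a was closest to Tbca (r = 0.96), Ifitm2 (0.95) and Fndc10 (0.95), and Gata3 to Dtymk (r = 0.96), Camk1 (0.94) and Adh1 (0.94). For Ret they were Anxa11 (r = 0.91), Cables2 (0.90) and Rfx4 (0.89). Over the 6 pairs, however, the Cy5 and Cy3 values of Ret correlated at -0.70, against 0.88 for Hand2, 0.97 for Phox2a and 0.75 for Gata3. The pattern of Ret over arrays was thus not repeated by the dye exchange, and its closest genes do not describe a pattern across mice. Among the 4 genes themselves r was 0.67 between Hand2 and Gata3, 0.41 between Phox2a and Gata3 and 0.40 between Hand2 and Phox2a. Ret gave 0.02 with Phox2a, 0.14 with Gata3 and -0.22 with Hand2. Over the 6 pair values in place of the 12 arrays, r of Ret was 0.21 with Phox2a, -0.38 with Gata3 and -0.65 with Hand2. The same 6 values gave 0.73 between Hand2 and Gata3, 0.51 between Phox2a and Gata3 and 0.42 between Hand2 and Phox2a. None of the 12 closest genes passed in limma over all 6 pairs, and their lowest adjusted p was 0.15 (Pds5b).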

How the data were processed

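The deposited table holds, per the labels, 1 column per 2-colour array, and the authors' values are log2 ratios between channels, 1 for each of 25344 spots. For 100% of spots on the 6 full-precision arrays, 2 raised to the value was a ratio of whole numbers up to 65535 (relative tolerance 1e-13). The sources used here do not give the authors' scanner, background subtraction or normalization. Array medians lay between -0.68 and -0.22 where Cy3 marked the transgenic RNA, and between 0.74 and 1.50 where Cy5 did. Each array was therefore corrected by a loess curve (span 0.3) on the signal of the probe, the 75th percentile over those arrays of the geometric mean of the recovered numbers. Signals of at least 32768 are called near the limit of the scanner. Columns were not turned, since the 2 arrays of a pair, after removal of the orientation mean, correlated at 0.24 to 0.68, against -0.28 to 0.12 for different pairs.

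Probes were named from the platform table (21082 with 1 gene, 30 with several, 4232 with none), probes of a gene were averaged, and a pair measured on 1 array kept that value. Features with values in at least 2 of 3 pairs per group were fitted in limma 3.58.1 (R 4.3.3) with a mean per age group, a sex term for the sex difference, 4 residual and 3.82 prior degrees of freedom, two-sided tests and Benjamini-Hochberg adjustment at 0.05. Other corrections, loess spans, single dye orientations, linear models, filters and omitted pairs were tried as alternatives. Replicates are separate mice, and the number of arrays, averaged to 6 pairs, limits the precision. Signal over background is unknown. Genes named by rule are the 4 chosen ones, Nr5a1, the 2 most positive and 2 most negative of each list, and the 3 closest in pattern. Th, the other GATA genes and the single markers were named after their values were seen. The genes and lists were chosen with earlier results of these data known.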

Additional observations from a re-analysis of the deposited data

How the results depend on the processing

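Counts of features called moved most with the correction and the dye. Without any correction 255 passed at 4 months, 7 at 10 days, 3548 over all 6 pairs and 8 between the sexes. Cy5 arrays alone gave 915, 222 and 3439 of 21610 features, and Cy3 arrays alone 288, 31 and 1411 of 21845. In both, the dye effect of a probe is not balanced. Over all 6 pairs the count was 0 after median centring, with a trend on signal, with a sex term and without pairs 3, 11 and 15 (chosen after seeing the data), 15 with loess spans of 0.6 and 0.15, 14 with robust limma and 1 in the ordinary linear model, which also called 1 between the sexes. Leaving out a pair gave 0 to 14 over all 6 pairs, 0 to 2 at 4 months and 0 to 1 at 10 days. Of 384 values of the 4 genes under alternatives, 358 kept sign and side of the threshold, 5 passed and 21 changed sign, none of them called. At 4 months Phox2a was -0.044 on Cy5 arrays and Ret -0.48 on Cy3 arrays and -0.042 without pairs 3, 11 and 15. At 10 days Hand2 was 0.092 and Ret -0.025 on Cy3 arrays, and over all 6 pairs Ret was -0.25 there. The age difference without correction was 0.064 for Phox2a and 0.024 for Ret, and was 0.16 for Ret on Cy5 arrays and -0.052 for Gata3 on Cy3 arrays. Ret between the sexes was 0.0013 on Cy3 arrays. Leave-one-out ranges that crossed 0 were -0.020 to 0.67 (Hand2) and -0.042 to 0.12 (Ret) at 4 months, -0.45 to 0.20 (Hand2) at 10 days, -0.037 to 0.31 (Hand2) over all pairs, -0.33 to 0.0057 (Phox2a) and -0.16 to 0.43 (Gata3) for the age difference, and -0.24 to 0.0028 (Ret) for the sexes. Ret passed at 0.43 without correction (limma adjusted p = 0.0486), as did 3548 of 21913 features. The cause of these shifts was not tested. Each of the 4 genes has 1 probe, so probes could not be split, and the sex difference could not be fitted without pairs 3, 11 and 15. Each ratio already pairs a transgenic mouse with its littermate. The age groups share no pair number, so they could not be paired with each other.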

Other observations

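Neuronal genes gave small ratios of both signs over all 6 pairs, and 0 of the 7 measured passed in limma, with 3 positive and 1 negative at an unadjusted p under 0.05 (15% of all features). Prph, which encodes the intermediate filament peripherin of sympathetic neurons, was at -0.27 ± 0.07 (SD, n = 6, limma adjusted p = 0.152) and negative in 6 of 6 pairs and on 11 of 12 arrays. Slc18a3, the vesicular transporter of acetylcholine, was at 0.24 ± 0.13 (SD, n = 6, adjusted p = 0.215) and positive on 12 of 12 arrays, which 1.27% of features measured on all arrays were, with 0.437% negative on all 12. Both were singled out after their values were seen. Of the Schwann cell markers, 5 of 7 were measured, 2 were positive and 3 negative, and their median was -0.02.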
